A study of Mus musculus with 20 samples.

Results

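Of the 32120 consensus regions of open chromatin in cells of the Nkx2.1 lineage, 781 lost accessibility in Tcf4 cKO mice without carrying reproducible Tcf4 in their unperturbed counterparts. They were chosen by 2 readouts. The mean ATAC-seq level of Tcf4 cKO minus that of WT was -1 or lower on the log2 scale, which is a fall of 2-fold or more, and the region was not overlapped by a Tcf4 peak in both Tcf4 libraries. No significance filter was applied, so the fall of a single region may lie within the spread between libraries. The first condition held for 1342 regions (4.18% of all regions), of which 561 carried Tcf4 peaks in both libraries and are called here the Tcf4-bound closing regions. The remaining 781 are called the unbound closing regions, although 302 of them had a Tcf4 peak in 1 library, 260 in replicate 1 alone and 42 in replicate 2 alone, and 479 had no Tcf4 peak in either. A missing peak says that none was called at the depth of these libraries and does not show that Tcf4 was absent. For comparison, 921 regions (2.87% of all regions) gained 1 log2 unit or more, and 16116 of the 29857 regions that moved by less lay outside promoters.

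The GFP-positive cells were sorted from dissected neocortices of pups in the second postnatal week (the file headers name postnatal day 7). WT mice carried Nkx2.1-Cre and functional Tcf4. Tcf4 cKO mice carried Nkx2.1-Cre with both copies of Tcf4 floxed, so Tcf4 was deleted only where this driver acts, in ventral progenitors of the embryonic forebrain and their descendants, from embryonic stages on. ATAC-seq and Cut&Tag for H3K4me1, H3K27ac and H3K27me3 had 2 libraries for each genotype. Tcf4 occupancy was measured with an anti-Flag antibody in 2 further libraries of a mouse line with Flag and HA tags on the endogenous Tcf4, which were made from neither of the genotypes used for ATAC-seq. Each library pooled the neuronal and glial descendants of the lineage, so a lower level in the same cells and fewer cells in which a region is open cannot be told apart. Tcf4 expression and the deletion itself were not analysed here.

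Tcf4 is an E protein, a class of basic helix-loop-helix transcription factors that bind as dimers to the E-box, a site with the letters CANNTG, often together with partners limited to 1 cell lineage. In ATAC-seq a transposase cuts accessible DNA, as found at promoters and at active enhancers. H3K4me1 marks enhancers in general, H3K27ac marks active enhancers and promoters, and H3K27me3 marks chromatin silenced by the Polycomb complex.

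The centres of 5 regions are shown as examples, with and without E-boxes. They were taken from the regions with the strongest fall (Epb42 and Raet1a) and from those with the strongest H3K27ac that was lost (Gm11352, Gm13471 and Gm16348), each named after the nearest gene in the authors' annotation. Each line gives 151 bases of GRCm38 around the region centre on the plus strand, 5′ to 3′, with every E-box in capitals.
Epb42, chr2:121023779-121023929: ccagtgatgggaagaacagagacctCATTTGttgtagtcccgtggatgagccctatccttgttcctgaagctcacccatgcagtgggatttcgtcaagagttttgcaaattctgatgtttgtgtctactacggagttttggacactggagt
Raet1a, chr10:22354099-22354249: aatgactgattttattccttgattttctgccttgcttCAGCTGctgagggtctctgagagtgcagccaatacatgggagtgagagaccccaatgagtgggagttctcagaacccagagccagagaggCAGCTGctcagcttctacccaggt
Gm11352, chr13:26119505-26119655: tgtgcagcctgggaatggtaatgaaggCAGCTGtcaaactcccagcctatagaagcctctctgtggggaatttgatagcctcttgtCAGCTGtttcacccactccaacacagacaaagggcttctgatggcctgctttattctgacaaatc
Gm13471, chr2:48090812-48090962: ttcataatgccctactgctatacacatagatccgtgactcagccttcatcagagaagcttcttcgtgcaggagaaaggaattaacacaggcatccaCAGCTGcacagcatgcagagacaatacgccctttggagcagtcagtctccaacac
Gm16348, chr8:41218011-41218161: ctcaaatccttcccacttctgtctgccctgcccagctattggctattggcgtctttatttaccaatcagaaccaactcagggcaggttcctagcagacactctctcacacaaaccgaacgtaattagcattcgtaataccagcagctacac
Raet1a and Gm11352 each held 2 copies of the palindrome CAGCTG, Gm13471 held 1, Epb42 held a single E-box of other letters, and Gm16348 held none. The examples hold CAGCTG more often than the 781 regions do. Of 4 further regions with a strong fall or lost H3K27ac, Bmf held 1 E-box of other letters, and Gm9762, Gm13703 and Dleu2 held none.

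The unbound closing regions were moderately open in WT. Their WT mean ran from 4.31 to 9.49 log2 normalised reads with a median of 5.95, and their Tcf4 cKO mean had a median of 4.60. The median difference was -1.29, close to the -1.32 of the Tcf4-bound closing regions, whose WT median was 6.83. Regions with no Tcf4 peak had a WT median of 5.81 and those with a peak in 1 library of 6.15. The unbound closing regions were also narrower, with a median width of 704 bp against 857 bp. These levels are the authors' means per genotype without an SD, and they follow from the choice of the regions, so no test applies. At the threshold, the last regions inside lay near Runx2 (-1.00013) and Smyd3 (-1.00027), and the first outside had Mbd2 as its annotated gene, at a distance of 747722 bp (-0.999638).

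**Figure D1:**
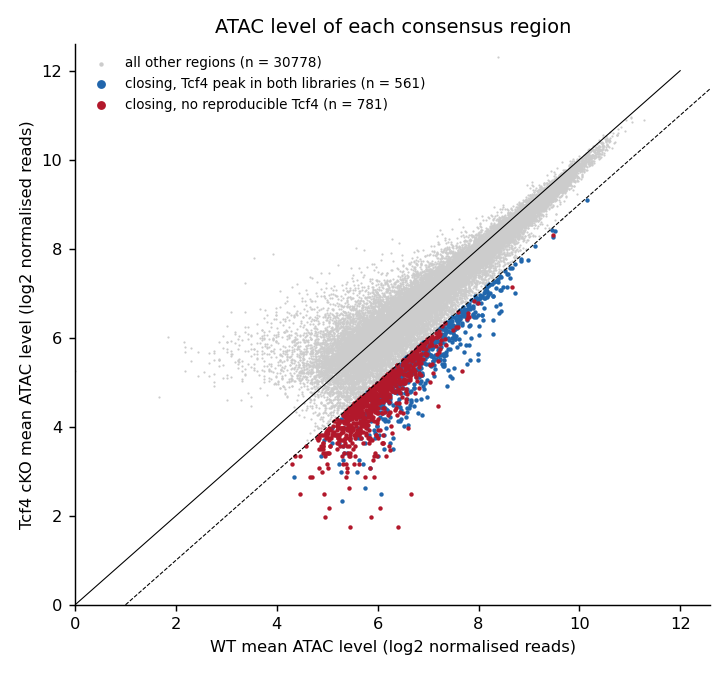
Mean ATAC-seq level of each consensus region in WT (x axis) and Tcf4 cKO (y axis), in log2 normalised reads, with equality as a solid line and a 2-fold fall as a dashed line. The 781 unbound closing regions (red) lie at lower WT levels, with a median of 5.95, than the 561 Tcf4-bound closing regions (blue), with a median of 6.83.

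Whether a closing region carried reproducible Tcf4 moved with its WT level. Outside promoters, closing regions with a WT mean from 5 to 5.5 carried it in 12.8% of cases (Wilson 95% interval, 8.32 to 19.1%), those from 6 to 6.5 in 38.8% (33.2 to 44.6%) and those from 7.5 to 8 in 88.2% (79.7 to 93.5%). The regions that moved by less than 1 log2 unit rose in the same bands from 1.37% through 10.9% to 56.0%. Because the line between unbound and bound regions runs with the WT level in this way, H3K27ac, H3K4me1 and CAGCTG are also given within bands of that level. The other properties were not compared at matched WT levels. All such intervals cover counting error over regions, which are not replicates, and are not adjusted for the number of comparisons.

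In the peak lists of single libraries, every unbound closing region had an ATAC-seq peak in both WT libraries. In Tcf4 cKO replicates 1 and 2, 55.6% and 59.0% of them still had a peak, against 78.6% and 80.7% of the Tcf4-bound closing regions. A peak called in the 2 WT libraries and absent from the 2 Tcf4 cKO libraries was found at 212 unbound closing regions (27.1%), where 1.02% of all regions showed this pattern, and at 68 Tcf4-bound closing regions (12.1%). The reverse was found at none of the 781 and at 0.56% of all regions. These counts come from the libraries that chose the regions and are a description only. For the other regions outside promoters the shares with a peak lay between 98.6% and 99.9% in all 4 libraries. Peak numbers per library ran from 54162 to 72308 for ATAC-seq, from 22026 to 28413 for H3K27ac, from 51510 to 72790 for H3K4me1 and from 15085 to 19182 for H3K27me3, and Tcf4 replicates 1 and 2 held 28606 and 16834 peaks. Read depths are unknown.

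The strongest fall was seen 4795 bp upstream of Bmf (chr2:118554482-118555129), which encodes a pro-apoptotic BH3-only protein. Its WT mean of 6.40 fell to 1.76 in Tcf4 cKO. The fold enrichment of its ATAC-seq peak was 6.91 and 7.57 in the WT libraries, with no peak in Tcf4 cKO. H3K27ac at this site had a fold enrichment of 5.44 and 5.96 in WT, and a peak of 4.10 remained in Tcf4 cKO replicate 1 alone. At 53.9% of its bases the reference genome is marked as repeat.

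The next was the region at the promoter of Epb42, the gene of erythrocyte membrane protein 4.2 (chr2:121023395-121024313, 589 bp from a start site in the authors' annotation and 12521 bp from the nearest protein-coding start), which fell from 6.66 to 2.49. Its ATAC-seq fold enrichment of 7.58 and 12.7 in WT gave way to no peak in Tcf4 cKO, whereas H3K4me1 was kept, at 4.27 and 4.41 in WT and 3.67 and 3.71 in Tcf4 cKO. H3K27ac stood at 3.05 and 5.51 in WT and at 4.30 in Tcf4 cKO replicate 1 alone. The region near Raet1a, a gene of ligands for the NKG2D receptor (chr10:22353827-22354522, in an intron), fell from 5.87 to 1.98 and had no H3K4me1 or H3K27ac peak in any library. Raet1a belongs to a family of closely related genes, so reads from its copies may not be told apart. At the promoter of the predicted gene Gm9762 (chr3:78966669-78967422) the level fell from 6.06 to 2.17, H3K4me1 peaks stood in all 4 libraries, and H3K27ac in both WT libraries and Tcf4 cKO replicate 1.

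Traf3, an adaptor of TNF receptor signalling, followed with an intronic region (chr12:111221842-111222466) that fell from 5.46 to 1.76 and had no histone peak. Near Nostrin, a regulator of endothelial nitric oxide synthase, the region (chr2:69109359-69110214, in a 3′ UTR) fell from 5.94 to 2.87. It had H3K4me1 fold enrichments of 3.93 and 4.14 and H3K27ac fold enrichments of 4.97 and 4.98 in WT, and neither mark had a peak in Tcf4 cKO. The exonic region of Pld1, which encodes a phospholipase D (chr3:28123662-28124352), fell from 6.16 to 3.34 and likewise had both marks in both WT libraries, and no peak of them was left in Tcf4 cKO. H3K27me3 lay over the Nostrin region in WT replicate 2 and in both Tcf4 cKO libraries.

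The other 3 of the 10 strongest falls lay near Ube2l6 (chr2:84810598-84811540), 5730507C01Rik (chr12:18514264-18515065) and ENSMUSG00000094947 (chr12:18853814-18854491), with differences of -2.87, -2.87 and -2.98. None of the 10 had an ATAC-seq peak in Tcf4 cKO, and 9 of them had no Tcf4 peak, Pld1 being the exception with a peak in replicate 1. In WT, 5 of the 10 had H3K27ac in both libraries and 4 had neither H3K4me1 nor H3K27ac in any library. None of the 10 had H3K27ac in both Tcf4 cKO libraries. Of the 21 regions with a difference of -2.5 or lower, 6 lay on chromosome 2, between positions 69109359 and 121024313, a stretch that held 26 of the 781 and 608 of all regions. None of the 14 Tcf4-bound closing regions with so strong a fall lay on chromosome 2. Repeats covered more than 50% of 3 of the 21 and 0 of the 14, beside 12 of the 781 (1.54%) and 127 of all regions (0.395%). The grouping on chromosome 2 was noticed after the values were seen.

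At the other end, the region with the highest WT mean was the promoter of H2-D1, a class I major histocompatibility gene (chr17:35262511-35264211), which fell from 9.49 to 8.32. It kept ATAC-seq, H3K4me1 and H3K27ac peaks in all 4 libraries of each assay, with H3K27ac at 4.20 and 5.15 in WT and 4.69 and 4.15 in Tcf4 cKO. Sequences of class I genes are alike, so its reads may be shared with other copies. Next came regions near ENSMUSG00000077876 (chr12:17992346-17993863, 8.66 to 7.15), Sh3pxd2a (chr19:47461085-47461914, 7.99 to 6.79), Tagln2 (chr1:172503066-172503835, 7.92 to 6.83) and Lclat1 (chr17:73253417-73254148, 7.81 to 6.46). The last 3 had no H3K4me1 or H3K27ac peak in WT.

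Only 7.68% of the unbound closing regions lay at promoters, within 1 kb of a start site, against 46.0% of the regions that moved by less. Introns held 41.9% and distal intergenic sequence 39.9%. Of the Tcf4-bound closing regions 6.95% lay at promoters, a difference of 0.731 percentage points whose interval held 0 (Newcombe 95% interval, -2.20 to 3.50). The closing regions without a Tcf4 peak were at promoters more often, in 9.19% of cases, than those with a peak in 1 library, in 5.30%, a difference of 3.89 percentage points (0.0171 to 7.43).

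H3K27ac was less common at the unbound than at the Tcf4-bound closing regions, and less common in Tcf4 cKO than in WT. Peaks covered 25.5% and 23.2% of the unbound closing regions in WT replicates 1 and 2, and 9.86% and 6.02% in Tcf4 cKO replicates 1 and 2, so the genotypes did not overlap. The means were 24.3 ± 1.63% in WT (SD, n = 2) and 7.94 ± 2.72% in Tcf4 cKO (SD, n = 2). At the Tcf4-bound closing regions the shares were 62.7% and 57.8% in WT and 29.2% and 20.7% in Tcf4 cKO. At the other regions outside promoters they were 47.4% and 39.2% in WT and 41.0% and 33.1% in Tcf4 cKO, where the genotypes overlapped. Outside promoters and without any Tcf4 peak, WT shares were 14.9% and 15.9% for closing regions and 27.6% and 20.5% for other regions. At the opening regions the shares were 15.5% and 13.4% in WT and 36.8% and 31.7% in Tcf4 cKO. No test between genotypes was made for this or any other mark. With 2 libraries against 2, the exact two-sided permutation test cannot give a p below 0.33.

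In both WT libraries, 14.5% of the unbound closing regions had H3K27ac, against 44.2% of the Tcf4-bound closing regions (difference -29.7 percentage points, -34.5 to -24.9). The share was 7.93% where no Tcf4 peak was called and 24.8% where 1 library had a peak, a difference of -16.9 percentage points (-22.5 to -11.6). Within each band of the WT level the unbound closing regions stayed below the Tcf4-bound closing regions. At a WT mean under 6, 5.80% of the unbound and 18.8% of the Tcf4-bound closing regions had H3K27ac (difference -13.0, -24.0 to -5.11). From 6 to 7 the shares were 23.6% and 32.1% (difference -8.51, -16.0 to -1.01). From 7 upward they were 35.6% and 63.4% (difference -27.9, -41.5 to -12.0). For no Tcf4 peak against a peak in 1 library, the interval held 0 from 7 upward (difference -16.4, -39.6 to 12.8). Against the other regions outside promoters the unbound closing regions were lower under 6 (difference -3.87, -5.88 to -1.14) and from 7 upward (difference -25.8, -38.2 to -11.1), but from 6 to 7 the interval held 0 (difference -1.75, -6.31 to 3.44).

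**Figure D2:**
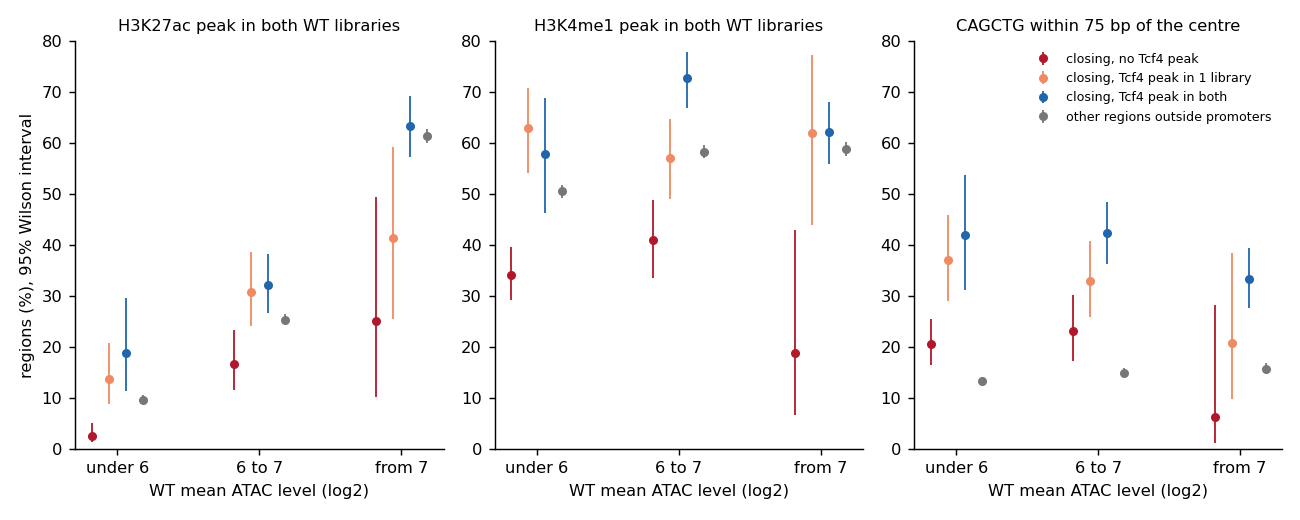
Share of regions with H3K27ac in both WT libraries, with H3K4me1 in both WT libraries, and with CAGCTG near the centre (y axes, %), in 3 bands of the WT mean ATAC-seq level in log2 normalised reads (x axes). Points are shares with Wilson 95% intervals. Closing regions with no Tcf4 peak (dark red) have the lowest H3K27ac in each band, with 2.61% under 6 and 16.7% from 6 to 7, and number 16 in the band from 7 upward.

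Of the 113 unbound closing regions with H3K27ac in both WT libraries, 56 had no H3K27ac peak in Tcf4 cKO, 36 had 1 in a single library and 21 kept it in both. The 56 are 7.17% of the 781 (Wilson 95% interval, 5.56 to 9.20%), beside 3.55% of all regions and 18.2% of the Tcf4-bound closing regions (102 regions). Among the 479 regions with no Tcf4 peak the loss was seen in 3.55%, the same as in all regions, and among the 302 with a peak in 1 library in 12.9%. As a share of the regions that had the mark, the loss came to 44.7% of 38 regions with no Tcf4 peak, 52.0% of 75 with a peak in 1 library and 41.1% of 248 Tcf4-bound closing regions. It was 13.8% of 4970 among the other regions outside promoters. With promoters and every Tcf4 peak left out on both sides, the loss came to 48.4% of 31 closing regions and 22.2% of 981 other regions. H3K27ac was gained at none of the 781, beside 1.35% of all regions. A count of 0 in 781 allows a share of up to 0.489% by the upper Wilson bound.

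The strongest H3K27ac that was lost lay in an intergenic region 74849 bp from the predicted gene Gm11352 (chr13:26119309-26119852). Its fold enrichment was 5.36 and 6.17 in WT, and it had no peak in Tcf4 cKO. The ATAC-seq mean there fell from 5.78 to 4.49, and H3K4me1 remained at 4.83 and 4.32. The Tcf4 peak was called in replicate 2 alone. In an intron 48874 bp from Gm13471 (chr2:48090503-48091272) H3K27ac was 5.08 and 5.76 in WT and H3K4me1 was again kept, at 6.70 and 4.67 in Tcf4 cKO. At the promoter of Gm16348 (chr8:41217819-41218353) H3K27ac was 5.50 and 5.43 in WT, and H3K4me1 stood in both WT libraries and in Tcf4 cKO replicate 1 alone. H3K27me3 peaks of 3.67 and 2.82 in WT were absent there in Tcf4 cKO. The 2 others lay at the promoter of Gm13703 (chr2:73356514-73357384) and 74686 bp from Dleu2 (chr14:61757059-61757880). All 5 regions of this group had H3K4me1 in both WT libraries and kept an ATAC-seq peak in at least 1 Tcf4 cKO library.

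H3K4me1 was more common than H3K27ac, and its share fell by fewer points before any allowance for changes at other regions. It covered 54.3% and 58.3% of the unbound closing regions in WT and 49.3% and 46.2% in Tcf4 cKO (means 56.3 ± 2.81% and 47.8 ± 2.17%, SD, n = 2). The genotypes did not overlap, and they moved the other way at the other regions outside promoters, where H3K4me1 covered 64.1% and 71.2% in WT and 77.4% and 74.4% in Tcf4 cKO. The H3K4me1 lists of Tcf4 cKO were also the longer ones, with 72790 and 65049 peaks against 51510 and 59526 in WT, and the part of list length in these shares was not tested. H3K4me1 was lost at 50 unbound closing regions (6.40%), beside 0.95% of all regions and 5.53% of the Tcf4-bound closing regions. As a share of the regions that had the mark in both WT libraries, the loss was 14.2% of 353 unbound closing regions. It was 8.33% of 372 Tcf4-bound closing regions and 1.97% of 9001 other regions outside promoters. H3K4me1 was gained at 16 unbound closing regions (2.05%), beside 5.42% of all regions. The loss was seen in 6.26% of the regions with no Tcf4 peak and in 6.62% of those with a peak in 1 library, a difference of -0.359 percentage points whose interval held 0 (-4.21 to 3.06). These 2 groups had the mark to unlike extents in WT. Of the regions that had it, 17.4% of 172 with no Tcf4 peak and 11.0% of 181 with a peak in 1 library lost it.

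In both WT libraries 45.2% of the unbound and 66.3% of the Tcf4-bound closing regions had H3K4me1, a difference of -21.1 percentage points (-26.2 to -15.8). By WT level this difference was -15.5 under 6 (-27.4 to -2.84) and -23.9 from 6 to 7 (-31.5 to -15.8). From 7 upward it was -15.5, and the interval held 0 (-30.4 to 0.0185). With no Tcf4 peak the H3K4me1 share was 35.9%, and with a peak in 1 library 59.9%. Under a WT mean of 6 these were 34.2% and 62.9% (difference -28.7, -38.2 to -18.4) and from 6 to 7 they were 41.0% and 57.0% (difference -16.0, -26.7 to -4.80). Taking both marks together, 28.4% of the unbound closing regions had neither H3K4me1 nor H3K27ac in any WT library, against 6.24% of the Tcf4-bound closing regions and 13.7% of the other regions outside promoters. The share was 37.6% with no Tcf4 peak. With promoters and every Tcf4 peak left out on both sides, it was 37.7% of the closing and 22.5% of the other regions.

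H3K27me3 was rare. It covered 2.94% and 3.33% of the unbound closing regions in WT and 3.84% and 2.69% in Tcf4 cKO, and the genotypes overlapped. It was lost at 2 of them, beside 1.72% of all regions, and gained at 1, beside 1.34% of all regions. In both WT libraries 1.79% had the mark, against 4.28% of the Tcf4-bound closing regions (difference -2.49 percentage points, -4.62 to -0.656). This order turned at a WT mean of at least the median of the Tcf4-bound closing regions (difference 2.59, -1.89 to 10.9), and with stronger peaks the interval held 0 (difference -0.507).

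**Figure D3:**
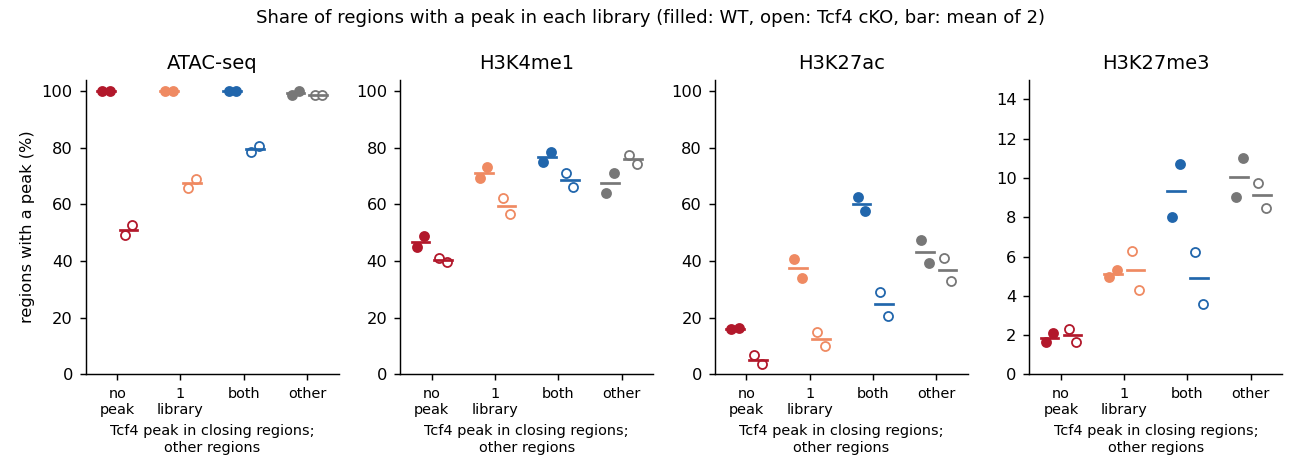
Share of regions (y axes, %) with a peak in each library for ATAC-seq and 3 histone marks, for closing regions with no Tcf4 peak, with a Tcf4 peak in 1 library and with Tcf4 peaks in both, and for other regions outside promoters. Filled points are the 2 WT libraries, open points the 2 Tcf4 cKO libraries and short lines their means. H3K27ac lies lower in both Tcf4 cKO libraries than in both WT libraries for each closing group and overlaps between genotypes for the other regions.

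E-boxes were frequent at the unbound closing regions, also where no Tcf4 peak was called. CAGCTG lay within 75 bp of the centre in 25.7% of them (Wilson 95% interval, 22.8 to 28.9%), against 38.3% of the Tcf4-bound closing regions (difference -12.6 percentage points, -17.6 to -7.53), 14.6% of the other regions outside promoters and 12.9% of all 32120 regions. The share was 20.9% with no Tcf4 peak and 33.4% with a peak in 1 library (difference -12.6, -19.0 to -6.18). By WT level this difference was -16.6 under 6 (-26.3 to -7.21), while the interval held 0 from 6 to 7 (-9.81, -19.7 to 0.262) and from 7 upward (-14.4, -32.9 to 10.2). With promoters and every Tcf4 peak left out on both sides, CAGCTG was held by 21.4% of the unbound closing regions and 10.6% of the other regions, 10.7 percentage points more (7.08 to 14.9). In the bands of the WT level, the shares of all unbound closing regions were 25.3%, 27.9% and 15.6% and those of the other regions outside promoters 13.2%, 14.9% and 15.8%. The highest band held 45 unbound closing regions, and its difference of -0.196 points had an interval from -8.08 to 13.1.

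Among the remaining E-boxes, CAGATG was held by 20.6% of the unbound closing regions, 29.8% of the Tcf4-bound closing regions and 13.7% of the other regions outside promoters, and CACCTG by 9.73%, 16.2% and 6.76%. An E-box of any letters (CANNTG) was found in 70.7% of the unbound closing regions, 82.0% of the Tcf4-bound closing regions and 57.3% of the other regions outside promoters. CANNTG includes the named E-boxes, so these shares are not separate. Around the strongest WT summit of each region, CAGCTG peaked near the summit in regions with a Tcf4 peak in 1 library, in 16.2% and 16.6% of them in the 50 bp to the left and right. With no Tcf4 peak the same bins held 9.19% and 7.52%, and in the other regions outside promoters 6.60% and 6.70%.

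**Figure D4:**
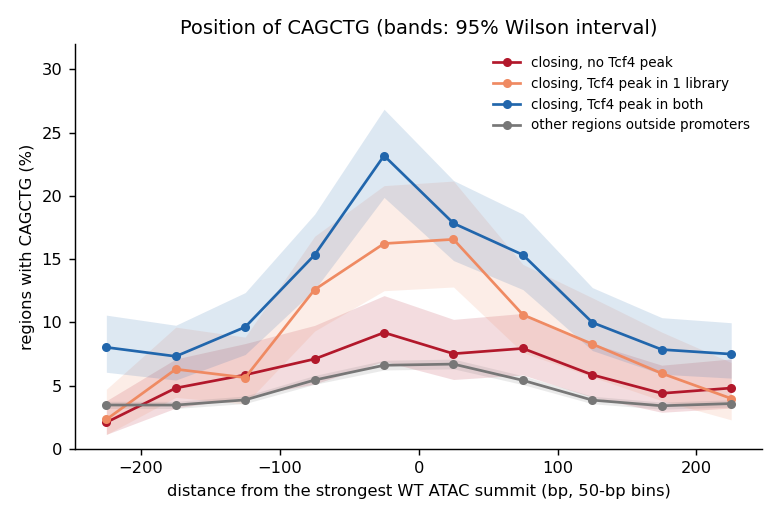
Share of regions with CAGCTG (y axis, %) in bins of 50 bp by distance from the strongest WT ATAC-seq summit (x axis, bp), with Wilson 95% intervals as shaded bands. The curve of closing regions with no Tcf4 peak (dark red) reaches 9.19% beside the summit, below the 16.6% of those with a Tcf4 peak in 1 library and the 23.2% of those with peaks in both.

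Letters of other factor families were searched in the same windows on both strands, 20 motifs in all. TGANTCA, the AP-1 site of Fos and Jun factors, was found in 8.07% of the unbound closing regions, 5.17% of the Tcf4-bound closing regions (difference 2.90 percentage points, 0.145 to 5.52, but -0.0766 to 5.58 outside promoters) and 4.91% of the other regions outside promoters (difference 3.15, 1.41 to 5.30). TGTGGT, the core letters of Runx sites, was found in 13.6%, 10.3% and 9.68%, and the interval of the difference held 0 against the Tcf4-bound closing regions (3.23, -0.339 to 6.66, but 0.681 to 7.92 outside promoters) and not against the other regions (3.89, 1.62 to 6.51). TAATTA, read by Dlx, Lhx and other homeodomain factors, was found in 4.61%, 2.50% and 3.96%, with an interval that held 0 against the other regions (-0.649 to 2.38). TTGGCA, letters read by the NFI factors of astrocyte development, was found in 9.09% and 8.56% of the unbound and Tcf4-bound closing regions. It was found in 12.1% of the other regions outside promoters and in 19.8% of the opening regions. With promoters and every Tcf4 peak left out on both sides, TTGGCA was held by 11.0% of the closing and 12.3% of the other regions. AGGNGGC, part of the CTCF site, was less frequent at the unbound closing regions (8.96%) than at the other regions outside promoters (difference -5.03, -6.92 to -2.76). For the remaining motifs (the E-boxes CACGTG and CATATG, the Sox letters ACAAAG and ACAATG, the TEAD letters GGAATG, the ETS letters CCGGAA, the nuclear receptor letters AGGTCA, the Klf and Sp letters GGGCGG, the forkhead letters GTAAACA, the POU letters ATGCAAAT and the CREB letters TGACGTCA), the shares at the unbound closing regions ran from 0.384% to 18.2%, and of the intervals against the Tcf4-bound closing regions only that of the forkhead letters lay apart from 0 (-1.95, -3.99 to -0.199). Against the other regions outside promoters, CATATG was more frequent (difference 1.29, 0.222 to 2.81), while GGGCGG (difference -4.24, -5.41 to -2.64) and GGAATG (difference -2.20, -3.76 to -0.227) were less frequent. Matching letters are a description of the sequence and do not show that a factor was bound.

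**Figure D5:**
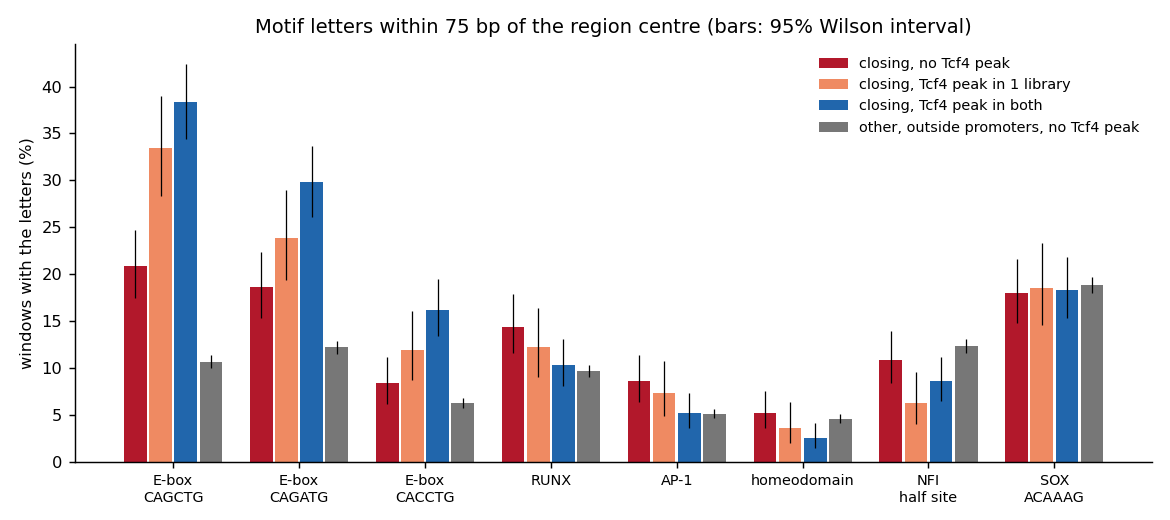
Share of windows of 75 bp to each side of the region centre (y axis, %) that hold the letters of 8 motifs (x axis), with Wilson 95% intervals. CAGCTG runs from 10.6% in other regions without a Tcf4 peak, through 20.9% and 33.4% in closing regions with a Tcf4 peak in no library and in 1 library, to 38.3% in closing regions with peaks in both, whereas the Sox letters ACAAAG stand at similar shares in all 4 groups.

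In 4 steps of the difference, from -1 down past -2 with the smallest falls first, H3K27ac in both WT libraries was found in 15.5%, 13.1%, 13.5% and 15.8%. CAGCTG was found in 22.5%, 27.2%, 28.2% and 33.3%, with intervals that overlapped. Promoters made up 7.32%, 7.04%, 6.41% and 15.8%. The last step held 57 regions, of which 57.9% had no Tcf4 peak and 9 lay at promoters.

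The median distance from an unbound closing region to the nearest reproducible Tcf4 region was 46460 bp. The choice of the regions left out those that overlap Tcf4 in both libraries, so this distance is compared only among regions outside promoters with no Tcf4 peak, where it was 45585 bp for the closing and 42739 bp for the other regions. Of the 781, 3 had such a region within 1000 bp and 94 within 10000 bp. Within 50000 bp, 60 (7.68%) had another unbound closing region, 29 (3.71%) a Tcf4-bound closing region and 31 (3.97%) an opening region. For the other regions outside promoters these shares were 4.69%, 3.96% and 6.67%. The 781 regions were nearest to 745 genes, of which 36 had 2 regions and none had 3 or more.

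Marker genes of neural cell types were followed through the gene nearest to each region. Of all 32120 consensus regions, 2.43% were unbound closing regions, 561 regions were Tcf4-bound closing regions and 921 (2.87%) were opening regions. The counts near each list are to be read beside these values. For 28 genes of cortical interneurons, a neuronal product of the lineage, this held for 4 of 92 regions (4.35%), and none was a Tcf4-bound closing region. With each region assigned to the nearest protein-coding start instead, it held for 9 of 136 (6.62%), with 1 Tcf4-bound closing region. The first lay 2436 bp from the start of Sst, the gene of the neuropeptide somatostatin (chr16:23887885-23888408), and fell from 5.40 to 3.56. H3K4me1 peaks of 3.73 and 4.50 in WT were absent in Tcf4 cKO. The region 43765 bp from Npy, the gene of neuropeptide Y (chr6:49778118-49778945), fell from 5.99 to 4.53, and that 51685 bp from Dlx2, a homeodomain factor of ventral forebrain progenitors (chr2:71598439-71599230), from 6.03 to 4.72. Both kept H3K4me1 in all 4 libraries, and the Dlx2 region also had H3K27me3 in all 4.

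For 20 general neuronal genes there were 4 unbound closing regions among 75 (5.33%) and 1 Tcf4-bound closing region. The unbound ones included the promoter of Elavl4, a neuronal RNA-binding protein (chr4:110292415-110292931, 6.47 to 4.87), and an intron of Map2, a dendritic microtubule protein (chr1:66277367-66278056, 5.24 to 3.69). At Elavl4, H3K27me3 stood in all 4 libraries, at 2.85 and 2.66 in WT and 3.51 and 3.07 in Tcf4 cKO.

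For 30 genes of oligodendrocyte precursors, glia that generate myelinating cells, there were 2 unbound closing regions among 126 (1.59%) and 7 Tcf4-bound closing regions (5.56%). The 2 lay 117601 bp from Id2, an inhibitor that binds E proteins and keeps them from DNA (chr12:25213693-25214463, 6.43 to 4.98), and in the 3′ UTR of Neu4, a sialidase (chr1:94027366-94028063, 6.87 to 5.80). Neither had an H3K27ac peak. At Neu4 the fold enrichment of the ATAC-seq peaks, 6.49 and 5.31 in WT and 6.83 and 5.99 in Tcf4 cKO, did not fall with the mean level. With the nearest protein-coding start, the counts were 6 and 11 of 190. None of the 30 regions near 15 myelin genes was an unbound closing region, and 2 were Tcf4-bound. Near 27 astrocyte genes, 1 of 90 regions was an unbound closing region, 28731 bp from Slc1a3, a glutamate transporter (chr15:8739495-8739976, 5.76 to 4.38), while 13 were opening regions.

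Of 21 genes of Notch, Wnt, BMP and FGF signalling, 3 of 66 regions were unbound closing regions and none was Tcf4-bound. The region 93730 bp from Lef1, a nuclear effector of Wnt signalling (chr3:131016079-131016741), fell from 5.91 to 3.26 and lost its H3K4me1 peaks of 4.06 and 3.80. The 2 others lay near Rbpj, the DNA-binding effector of Notch (chr5:53509293-53510119, 5.95 to 4.63, and chr5:53605271-53606026, 5.83 to 4.78). Among 26 guidance and adhesion genes there were 2 of 123, at Epha4 (chr1:77506147-77506638, 5.46 to 4.03) and Sema5a (chr15:32433467-32434152, 6.99 to 5.98). Among 14 E-protein and Id genes there was 1 of 46, the Id2 region already named. No unbound closing region lay near the 12 projection neuron, 12 microglial or 12 vascular genes, with 24, 12 and 19 regions. H3K27ac stood at a promoter in both WT libraries for 12 of the 30 genes of oligodendrocyte precursors, 13 of the 28 interneuron genes and 17 of the 27 astrocyte genes. The counts were 14 of the 20 general neuronal, 5 of the 15 myelin, 1 of the 12 projection neuron, 0 of the 12 microglial and 3 of the 12 vascular genes. The paper reports no astrocytes of this lineage in the more mature WT neocortex. At postnatal day 7 it compared the density of lineage progenitors with astrocyte markers between the genotypes, and reports a higher density in Tcf4 cKO. An acetylated promoter does not by itself identify a cell type here. The counts near each list are small, and the lists were chosen with earlier results of these data known.

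All 4 consensus regions of the Y chromosome had lower means in Tcf4 cKO, by differences from -1.34 to -0.92, while the median difference was -0.119 on the X chromosome. Only 1 of the 4 was an unbound closing region, near Kdm5d (5.92 to 4.86), and the X chromosome held 7 of the 781. The sex of the pooled pups was not given in the sources used here, and its part in the levels of other regions was not tested.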

How the data were processed

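ATAC-seq and Cut&Tag peak lists of 18 libraries and 1 table of consensus regions were used, grouped by their labels. Per the methods, the authors trimmed reads with Trim Galore, aligned them to mm10 (GRCm38) with Bowtie 2, removed duplicated and multiply mapped pairs, and ran MACS2 on single libraries. The deposited peak lists give each peak's fold enrichment, which is a ratio over the local background, with -log10 values of p and of q. The q-values lay under 0.05 for narrow peaks and under 0.1 for the broad H3K27me3 peaks. The deposited consensus table, made by the authors with DiffBind and DESeq2 and annotated with ChIPseeker, gives log2 mean normalised reads per genotype. Its fold change, p-value and FDR columns hold the authors' own comparison and were not used. The footprint table and single-cell data were not used here. Read counts per library are not in these files, so depth is known as peak numbers only. No control libraries without antibody were used.

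A peak was placed on a region when they shared 1 bp or more. A mark counted as present in a genotype with a peak in both libraries, as lost with a peak in the 2 WT libraries and none in Tcf4 cKO, and as gained in the reverse case. The fold enrichment printed for a region is that of its strongest overlapping peak. Sequences came from RefSeq GRCm38, read with samtools 1.23.1 and pysam 0.24.0. Motifs were searched within 75 bp of region centres. Symbols were found for 31735 regions, 27824 of them in the deposited table. Shares carry Wilson and differences Newcombe 95% intervals, and no p-values were computed. Statistics used Python 3.11.15, numpy 2.4.6, pandas 2.3.3 and scipy 1.17.1, and figures matplotlib 3.10.9. Overlaps, intervals and the motif search were tested on simulated data.

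Named regions were the 10 with the lowest difference, the 5 with the strongest lost H3K27ac, the 5 with the highest WT mean, up to 3 per gene list, and the 2 on each side of the threshold, of which some are not reported here. The Y-linked regions and the grouping on chromosome 2 were added after their values were seen. The regions and the gene lists were chosen with earlier results of these data known. Alternatives covered peak strength, covered length, promoters, Tcf4 subsets, WT level, window size and each library left out.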

Additional observations from a re-analysis of the deposited data

How the results depend on the processing

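The number of unbound closing regions, 781, was 479 when regions with a Tcf4 peak in 1 library were left out, and 521 to 739 when a single Tcf4 library defined the bound regions. It was 619 with the difference centred on its median, and it moved by less than 1.5 times under this and the other settings. No paired analysis was possible because the results come from no test between libraries.

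The H3K27ac share in WT of 14.5% was 7.93% with no Tcf4 peak, 3.07% with stronger peaks only (a -log10 q-value from 5 upward) and 33.3% at a WT mean of at least the median of the Tcf4-bound closing regions. In bands of the WT mean, added after seeing the data, it was 5.80%, 23.6% and 35.6%. With 1 library it was 23.2% to 25.5%. Its shortfall against the Tcf4-bound closing regions kept its direction, with an interval without 0, in every setting run, from -37.3 to -34.6 percentage points with 1 library. The 56 losses became 17 with stronger peaks, 17 with no Tcf4 peak, 8 at the higher WT mean and 70 to 131 without 1 library.

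The H3K4me1 share of 45.2% was 35.9% with no Tcf4 peak, 7.94% with stronger peaks, 41.6% with peaks covering at least 30% of the region and 54.3% to 58.3% with 1 library, where its shortfall was -20.6 to -20.4 points. The 50 losses became 29 with stronger peaks, 30 with no Tcf4 peak, 5 at the higher WT mean and 78 to 107 without 1 library.

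The H3K27me3 share of 1.79% was 1.04% with no Tcf4 peak, 5.80% at the higher WT mean, 0.384% with stronger peaks and 2.94% to 3.33% with 1 library, where its shortfall was -7.37 to -5.08 points. Its difference from the Tcf4-bound closing regions turned to 2.59 points at the higher WT mean (interval, -1.89 to 10.9) and was -0.507 with stronger peaks, with an interval that held 0. The 1 gain became 0 with stronger peaks or no Tcf4 peak, 2 with covered length and 3 to 9 without 1 library.

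The CAGCTG share of 25.7% was 41.4% within 150 bp, 30.1% around WT summits, 20.9% with no Tcf4 peak and 15.6% at a WT mean from 7. The promoter difference of 0.731 points from the Tcf4-bound closing regions turned to -0.467 with GENCODE M21 start sites (interval, -3.50 to 2.39). Except where a setting keeps fewer regions or fewer peaks, the cause of these changes was not tested. The unknown depth of the libraries limits every count of lost or missing peaks.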
